A study of Mus musculus with 12 samples.

Results

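Genes of the contractile apparatus and the surface membrane of heart muscle cells were followed in mouse gastruloids grown inside dextran hydrogels. The 10 genes were chosen by name for their known place in the cardiomyocyte, with earlier results of these data known. The list holds the troponins *Tnnt2*, *Tnni1* and *Tnnc1*, the cardiac actin *Actc1*, and the myosin light chains *Myl4* and *Myl7*. It also holds the myosin heavy chains *Myh6* and *Myh7*, titin (*Ttn*) and the membrane protein *Popdc2*. These 10 genes are among the 55141 in the count table. All 10 had reads in all 12 libraries and passed the filter on low counts.

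Gastruloids are aggregates of embryonic stem cells that elongate and form derivatives of the germ layers in culture. Here 129/svev mouse embryonic stem cells were seeded at 300 cells per well in N2B27 medium and given a pulse of 3 µM CHIR 99021, an activator of Wnt signalling, for 24 h starting at 48 h. The gastruloids were then embedded at 72 h or at 96 h after seeding in a dextran gel with a concentration of 1.0 or 1.5 mM, and released with dextranase and harvested at 120 h. These choices gave 4 groups of 3 replicates each: 72 h in 1.0 mM, 96 h in 1.0 mM, 72 h in 1.5 mM and 96 h in 1.5 mM. All 4 groups received the CHIR 99021 pulse and all were embedded, so gastruloids that never met a gel were not analysed here. Embedding earlier also meant a longer stay in the gel before the common harvest, and these cannot be told apart. Each replicate pooled about 30 gastruloids made from a single cell line. The study's methods describe all replicates as biological, and the p-values measure the spread between such replicates of this cell line.

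The sarcomere is the repeating unit of striated muscle, in which myosin heads of the thick filament pull on actin of the thin filament. Calcium binding to troponin C releases the block that troponin I and troponin T hold over the thin filament, and titin spans from the Z-disc to the M-band as a spring. Cells of the early heart field switch on several of these genes before the heart tube beats, and some, such as *Tnni1* and *Actc1*, are also used by embryonic skeletal muscle.

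On the mm10 build (GRCm38, GENCODE M21 gene coordinates), *Tnnt2* lies at chr1:135836354-135852260 and *Tnni1* at chr1:135779434-135810989, both on the plus strand. *Tnnc1* lies at chr14:31208312-31211729 on the plus strand. *Actc1* lies at chr2:114047282-114053548 on the minus strand, and *Ttn* at chr2:76703980-76982547, also on the minus strand, with up to 347 exons in a transcript. *Myl4* lies at chr11:104550663-104595753 on the plus strand, and *Myl7* at chr11:5896637-5898782 on the minus strand. *Myh6*, at chr14:54941921-54966927, and *Myh7*, at chr14:54970684-54994626, are neighbours and paralogues on the minus strand. *Popdc2* lies at chr16:38362209-38378216 on the plus strand. *Tnnc1* lies within the span of *Nisch* on the opposite strand, which had 16376 to 20414 reads per library. The strand setting of the read counting is not given in the sources used here, so reads of the 2 genes may not be told apart where their exons overlap. The start of *Popdc2* overlaps the gene *Gm21987* on the same strand, which was not analysed here.

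Because the members moved together across the libraries, the 250 bases before each start site were read from RefSeq (GRCm38.p6), which held all 10 genes in 13 windows. Both strands were searched for the CArG box, the binding element of serum response factor, the MEF2 site, the GATA letters AGATAA, the M-CAT letters CATTCC bound by TEAD factors, the shorter NKX2 letters AAGTG, and the TATA box letters TATAAA. The 5 windows that held a CArG box, a MEF2 site or a GATA match are shown 5′ to 3′ with CArG, MEF2, GATA and M-CAT matches in capitals.
Myl7, chr11:5898783-5899032, minus strand: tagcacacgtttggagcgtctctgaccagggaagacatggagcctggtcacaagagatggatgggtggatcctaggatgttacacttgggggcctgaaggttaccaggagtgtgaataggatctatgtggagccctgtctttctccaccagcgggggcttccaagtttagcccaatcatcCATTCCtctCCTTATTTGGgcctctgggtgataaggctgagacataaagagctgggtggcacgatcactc
Actc1, chr2:114052876-114053125, minus strand: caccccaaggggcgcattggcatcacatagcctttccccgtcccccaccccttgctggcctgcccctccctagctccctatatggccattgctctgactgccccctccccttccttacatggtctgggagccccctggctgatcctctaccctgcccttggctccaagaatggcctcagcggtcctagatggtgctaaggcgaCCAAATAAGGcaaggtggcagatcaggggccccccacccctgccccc
Ttn, chr2:76982548-76982797, minus strand: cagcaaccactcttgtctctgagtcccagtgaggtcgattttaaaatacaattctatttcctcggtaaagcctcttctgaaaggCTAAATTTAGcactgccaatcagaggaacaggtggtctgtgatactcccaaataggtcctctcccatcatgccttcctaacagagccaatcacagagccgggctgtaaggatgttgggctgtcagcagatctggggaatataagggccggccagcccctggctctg
Tnnt2, chr1:135836084-135836333, plus strand: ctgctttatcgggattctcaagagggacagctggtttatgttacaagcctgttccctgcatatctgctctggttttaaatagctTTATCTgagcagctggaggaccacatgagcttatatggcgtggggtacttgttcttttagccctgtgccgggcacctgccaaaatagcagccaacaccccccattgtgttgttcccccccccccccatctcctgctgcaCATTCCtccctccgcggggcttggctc
Popdc2, chr16:38361940-38362189, plus strand: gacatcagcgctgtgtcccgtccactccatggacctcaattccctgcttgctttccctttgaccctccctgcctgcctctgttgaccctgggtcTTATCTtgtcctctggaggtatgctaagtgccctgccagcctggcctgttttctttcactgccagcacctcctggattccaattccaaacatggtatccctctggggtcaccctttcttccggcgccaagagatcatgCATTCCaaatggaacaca

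The window of *Myl7* holds the M-CAT letters followed closely by a CArG box, CCTTATTTGG, and the window of *Actc1* holds the CArG box CCAAATAAGG. A CArG box was thus present in 2 of the members' 13 windows and in 1.47% of the 32851 windows of the same length over all genes. *Ttn* held the single MEF2 match, CTAAATTTAG, a motif present in 2.92% of all windows. The GATA letters occurred in 2 of the 13 windows, beside 9.99% of all windows. These were windows of *Tnnt2* and *Popdc2*, with the letters on the opposite strand in both and so printed as TTATCT. M-CAT letters were found in 6 of the 13 windows, from 6 genes, beside 12.6% of all windows. The NKX2 letters were in 7 of the 13 windows, also from 6 genes, beside 40.7%. The TATA box letters were in none of the members' windows and in 12.4% of all windows. No 2 matches overlapped in the members' windows. These matches describe the letters only, and binding was not measured.

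The 12 libraries held 23011791 to 27609422 counted reads, so that the members' summed counts of 1003 to 11760 per library left room for counting error mainly in the lowest genes. Mitochondrial genes took 1.68% to 3.02% of the reads and were left out of the tests. A single annotated gene, *CT010467.1*, took 0.207% to 6.12% of the reads, with its highest share in replicate 1 of the 72 h, 1.5 mM group. Read counts below are given as CPM, normalised to library size and scaled by the TMM method, which sets the libraries' effective sizes from the bulk of the genes. FPKM, reads normalised to transcript length and library size, is used where levels of different genes are compared.

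Averaged over the 12 libraries, *Myl7*, the atrial regulatory light chain, had the highest level per length with 33.5 FPKM. Then came *Tnni1*, the slow skeletal and embryonic cardiac troponin I, with 17.8 FPKM and *Tnnc1*, the calcium-binding troponin C, with 16.8 FPKM. *Myl4*, the atrial essential light chain, reached 10.7 FPKM and *Tnnt2*, the cardiac troponin T, 9.29 FPKM. *Actc1* stood at 3.58 FPKM, *Myh6* at 2.22, *Popdc2* at 1.78, *Myh7* at 1.68 and *Ttn* at 0.404. Each of the top 6 genes was above the next one in 9 to 12 of the 12 libraries, whereas *Myh6* was above *Popdc2* in 8 and *Popdc2* above *Myh7* in 7 of 12, so the order of these 3 changed between libraries.

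**Figure D1:**
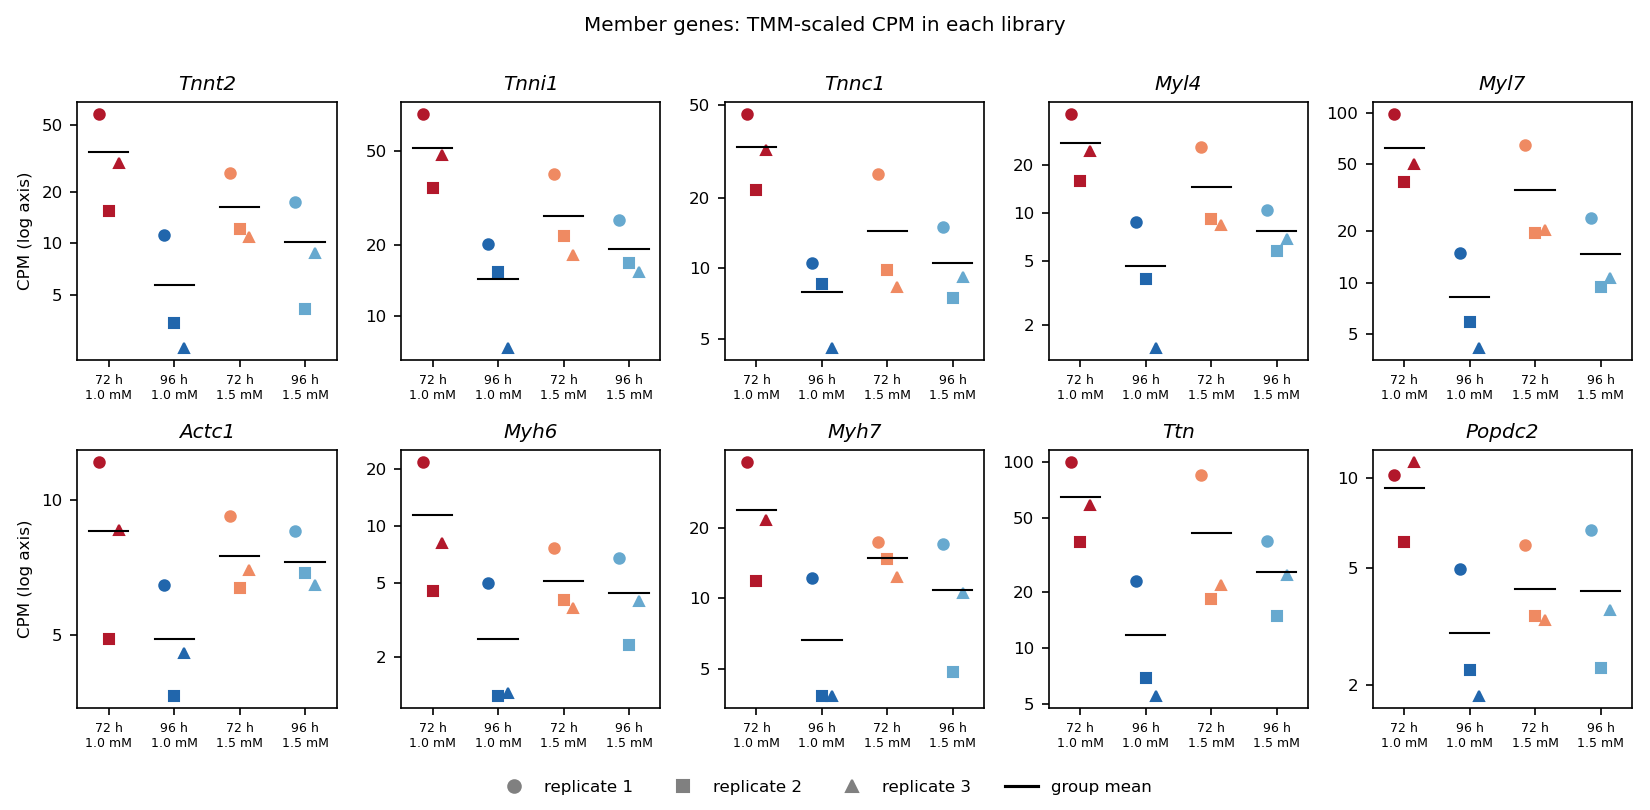
CPM (log axis, a separate scale in each panel) of the 10 genes in the 12 libraries, by embedding time and gel concentration, with marker shape for the replicate number and a black bar at each group's mean. The summed CPM of the members lay between 192 and 498 in the 72 h, 1.0 mM group and between 36.9 and 117 in the 96 h, 1.0 mM group.

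The first comparison asked whether gastruloids embedded early differed from those embedded late in the soft 1.0 mM gel. In these gels, 9 of the 10 genes were higher after embedding at 72 h than at 96 h (edgeR quasi-likelihood test, Benjamini-Hochberg adjusted p below 0.05 and a log2 fold change above 1). Among all 15763 genes tested, 2.61% passed the same rule in the same direction. Their median log2 fold change was 2.14, beside -0.01 for all genes tested. In bulk samples, fewer cardiomyocyte-type cells and less of these RNAs per cell cannot be told apart. The 3 libraries at 72 h lay above all 3 at 96 h for 7 of the 10 genes, which held for 14.6% of all genes tested.

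Among the thin filament genes, *Tnnt2* measured 57.8, 15.6 and 29.8 CPM in replicates 1 to 3 embedded at 72 h and 11.2, 3.41 and 2.43 CPM in those embedded at 96 h. The groups did not overlap, and the log2 fold change was 2.61 (SE 0.537, adjusted p = 0.0116), a 6.09-fold difference. *Tnni1* measured 72.0, 35.0 and 48.1 CPM at 72 h and 20.3, 15.3 and 7.32 CPM at 96 h. Here too the groups stood apart (log2 fold change 1.86, SE 0.323, adjusted p = 0.00471). For *Tnnc1*, the values were 45.7, 21.6 and 32.1 CPM against 10.5, 8.59 and 4.56 CPM. Its groups were also separate (log2 fold change 2.08, SE 0.300, adjusted p = 0.00180). *Actc1*, the actin of the cardiac thin filament, was the exception. It measured 12.2, 4.90 and 8.57 CPM at 72 h and 6.48, 3.65 and 4.56 CPM at 96 h, so that the groups overlapped. It did not pass the test (log2 fold change 0.81, SE 0.303, adjusted p = 0.134). Without replicate 2 of the early group it did, with a log2 fold change of 1.09 and an adjusted p of 0.0178.

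In the thick filament, *Myl7* showed the largest fold change of the members: 98.5, 39.0 and 49.9 CPM at 72 h against 14.8, 5.86 and 4.12 CPM at 96 h. All 3 early libraries were above the late ones, and the log2 fold change was 2.92 (SE 0.436, adjusted p = 0.00216), a 7.58-fold difference. Its partner light chain *Myl4* measured 41.8, 15.9 and 24.4 CPM against 8.78, 3.85 and 1.43 CPM. The groups did not overlap (log2 fold change 2.55, SE 0.491, adjusted p = 0.00813). *Myh6*, the alpha heavy chain, measured 21.9, 4.53 and 8.07 CPM at 72 h and 4.98, 1.24 and 1.29 CPM at 96 h. Replicate 1 of the late group was above replicate 2 of the early group, and the fitted difference was 4.59-fold (SE 0.598 on the log2 scale, adjusted p = 0.0413). *Myh7*, the beta heavy chain of slow muscle and the early ventricle, measured 38.5, 11.9 and 21.6 CPM against 12.2, 3.81 and 3.82 CPM. These groups overlapped in the same pair of libraries (log2 fold change 1.86, SE 0.467, adjusted p = 0.0293).

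*Ttn* measured 99.7, 37.2 and 58.4 CPM at 72 h and 22.8, 6.86 and 5.51 CPM at 96 h. Its groups were separate and differed 5.57-fold (log2 fold change 2.48, SE 0.477, adjusted p = 0.00813). *Popdc2* encodes a cyclic AMP-binding Popeye domain protein of the cardiomyocyte membrane. It measured 10.3, 6.09 and 11.4 CPM against 4.94, 2.25 and 1.84 CPM. The early libraries were again all above the late ones (log2 fold change 1.62, SE 0.343, adjusted p = 0.0132).

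The calls of the 2 heavy chains were the least stable. DESeq2 gave *Myh6* an adjusted p of 0.1002 and *Myh7* 0.0780, and limma-voom gave *Myh6* 0.0633, so that 7 and 8 genes were called by these tools. Without replicate 2 of the 96 h, 1.0 mM group, 5 genes were called, and *Tnnt2*, *Myh6*, *Myh7* and *Popdc2* were no longer among them.

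**Figure D2:**
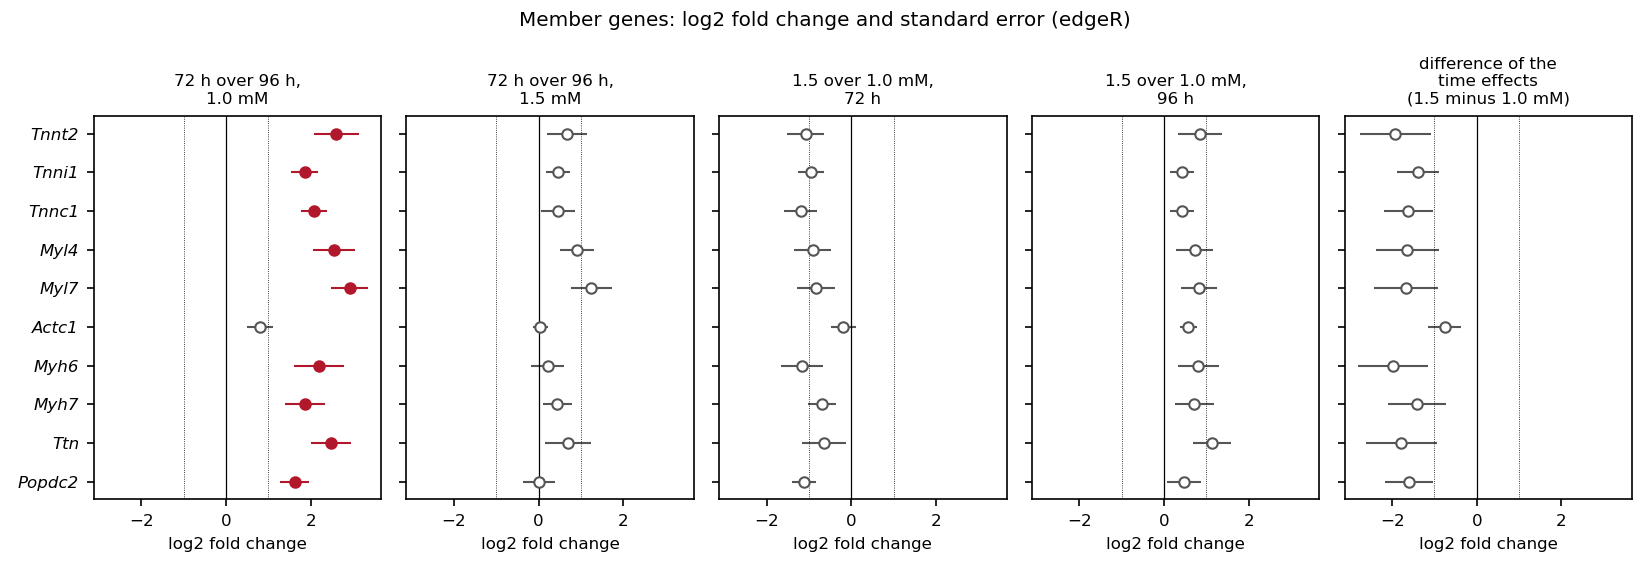
Log2 fold change (points) and its standard error (bars) of each gene in 5 edgeR comparisons, with filled red points for genes with an adjusted p below 0.05 and a log2 fold change beyond 1 (dotted lines) and open points for the others. Only the leftmost panel, embedding time in 1.0 mM gels, holds filled points, and all 10 points of the rightmost panel lie below 0.

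The same question was asked in the denser 1.5 mM gels. None of the 10 genes passed the test there (0 of 10, beside 1.61% of 15683 genes called higher at 72 h), although all 10 fold changes were above 0. Their median log2 fold change was 0.46 with a range of 0.01 to 1.24. Of the members, 1, *Myl7*, had an unadjusted p below 0.05, beside 17.9% of all genes in that direction. No gene had separate groups, which occurred for 20.0% of all genes tested.

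*Myl7* again had the largest value. It measured 64.8, 19.5 and 20.5 CPM at 72 h and 24.0, 9.39 and 10.7 CPM at 96 h, and replicate 1 of the late group was above replicates 2 and 3 of the early group. Its log2 fold change was 1.24 (SE 0.491, adjusted p = 0.103). *Ttn* measured 84.7, 18.3 and 21.9 CPM against 37.6, 14.9 and 24.6 CPM (log2 fold change 0.69, SE 0.539, adjusted p = 0.398). A single early library, replicate 1, stood above the late group of *Ttn*. *Tnnt2* measured 26.1, 12.2 and 10.9 CPM against 17.6, 4.09 and 8.84 CPM (log2 fold change 0.68, SE 0.471, adjusted p = 0.341). At the other end, *Popdc2* measured 5.95, 3.43 and 3.33 CPM against 6.67, 2.29 and 3.58 CPM, with a log2 fold change of 0.01 (SE 0.374). *Actc1* also lay near 0 with 9.20, 6.37 and 6.97 CPM against 8.55, 6.86 and 6.46 CPM (log2 fold change 0.04, SE 0.180). The remaining members lay between these. *Tnni1* measured 39.8, 21.95 and 18.2 CPM against 25.4, 16.9 and 15.4 CPM (log2 fold change 0.47), and *Tnnc1* 25.4, 9.80 and 8.31 CPM against 15.0, 7.43 and 9.19 CPM (0.45). *Myl4* came closest to *Myl7*, with 25.9, 9.22 and 8.47 CPM against 10.5, 5.78 and 6.85 CPM (0.90, SE 0.411, adjusted p = 0.1496). In both troponins and in *Myl4*, replicate 1 of the early group was the only library above the whole late group. *Myh6* measured 7.60, 4.05 and 3.65 CPM against 6.79, 2.33 and 4.01 CPM (0.21), and *Myh7* 17.5, 14.7 and 12.4 CPM against 17.2, 4.86 and 10.6 CPM (0.44). The heavy chains were less spread at 72 h than the light chains, and replicate 1 of the late group was nearly as high as the highest early library for both. The fold changes depended on replicate 1 of the 72 h, 1.5 mM group. Without it, the log2 fold changes ran from -0.36 to 0.44, and 5 of the 10 genes were below 0.

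Within an embedding time, gel concentration was compared next. After embedding at 72 h, all 10 genes had lower values in 1.5 mM than in 1.0 mM gels, their log2 fold changes being -1.20 to -0.19 and a median of -0.94 beside 0.00 for all genes tested. None passed the edgeR test (0 of 10, and 0% of 15563 genes). An unadjusted p below 0.05 was found for 5 of them, *Tnnt2*, *Tnni1*, *Tnnc1*, *Myh6* and *Popdc2*, beside 2.90% of all genes in that direction. *Tnnc1* had the most negative value, with 25.4, 9.80 and 8.31 CPM in 1.5 mM gels against the 45.7, 21.6 and 32.1 CPM given above. Its groups overlapped, and the log2 fold change was -1.20 (SE 0.389, adjusted p = 0.698). *Popdc2* was the 1 gene whose groups were separate, a pattern found for 5.11% of all genes, with 3.33 to 5.95 CPM in 1.5 mM gels and 6.09 to 11.4 CPM in the softer ones (log2 fold change -1.13, SE 0.286, adjusted p = 0.698). *Myh6* (-1.17), *Tnnt2* (-1.07) and *Tnni1* (-0.96) had the next lowest log2 fold changes, then *Myl4* (-0.92) and *Myl7* (-0.84), and *Actc1* (-0.19) had the smallest. Single libraries moved these values. Without replicate 1 of the 72 h, 1.0 mM group the median was -0.41, with *Tnnt2* at -0.47, *Myl7* at -0.35, *Myh6* at -0.31, *Ttn* at -0.20 and *Actc1* above 0 at 0.16. Without replicate 1 of the 72 h, 1.5 mM group the median was -1.59, and no gene was called in either fit. Leaving out replicate 1 of every group, an alternative chosen after the data were seen, brought 5 genes past the threshold, *Tnni1*, *Tnnc1*, *Myl4*, *Myl7* and *Ttn*, with 49 genes called in all.

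After embedding at 96 h, the direction was the opposite. All 10 genes had higher values in the denser gels, their log2 fold changes being 0.42 to 1.13 and a median of 0.72 beside 0.00 for all genes tested. None passed the edgeR test (0 of 10, and 0% of 15861 genes), and 2 had an unadjusted p below 0.05, *Actc1* and *Ttn*, beside 5.04% of all genes in that direction. *Ttn* had the largest value, at 37.6, 14.9 and 24.6 CPM in 1.5 mM gels against 22.8, 6.86 and 5.51 CPM in the softer ones, which gave a log2 fold change of 1.13 with an SE of 0.441 (adjusted p = 0.447). *Tnnt2* (0.85), *Myl7* (0.83), *Myh6* (0.81), *Myl4* (0.72) and *Myh7* (0.72) followed, and *Popdc2* (0.48), *Tnni1* (0.43) and *Tnnc1* (0.42) had the smallest log2 fold changes. *Actc1* had a log2 fold change of 0.57 with the smallest standard error of the members, 0.204. Without replicate 1 of the 1.5 mM group the median was 0.27, with *Tnnt2* at 0.21, *Tnnc1* at 0.093 and *Popdc2* at -0.019. Without replicate 1 of the 1.0 mM group it was 1.53, with *Tnnt2* at 1.81 and *Ttn* at 2.06, and without its replicate 3 it was 0.46. No member had separate groups, which 7.46% of all genes did.

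The difference between the 2 time effects was tested directly with an interaction term. All 10 interaction terms were negative, from -1.98 for *Myh6* to -0.76 for *Actc1* on the log2 scale, with a median of -1.63 beside 0.01 for all genes. None passed after adjustment (0 of 10, and 0% of 16388 genes), each having an adjusted p of 0.953, while 7 had an unadjusted p below 0.05, beside 1.96% of all genes in the negative direction. *Tnnc1* had the smallest unadjusted p of the members, with a term of -1.62 and an SE of 0.577. *Myh6* had a term of -1.98 with an SE of 0.836. Leaving out replicate 1 of every group was an alternative chosen after the data were seen. In that fit, *Myl7* (-2.19, adjusted p = 0.0121) and *Ttn* (-2.95, adjusted p = 0.0153) passed the edgeR test of the interaction. How many of all genes passed it there is not reported here.

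When both gels were fitted together with gel concentration as a term, 7 of the 10 genes were higher after embedding at 72 h, beside 2.36% of 16388 genes. *Actc1*, *Myh6* and *Popdc2* did not pass, with log2 fold changes of 0.42, 1.20 and 0.83. The highest value was that of *Myl7*, 2.06 (SE 0.440, adjusted p = 0.00276), followed by *Myl4* (1.71), *Tnnt2* (1.63), *Ttn* (1.56), *Tnnc1* (1.27), *Tnni1* (1.16) and *Myh7* (1.14). The count fell to 4 without replicate 2 or replicate 3 of the 96 h, 1.0 mM group and without replicate 1 of the 72 h, 1.5 mM group. With the embedding times fitted together, none of the members differed between gels, and their log2 fold changes ran from -0.43 to 0.19.

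**Figure D3:**
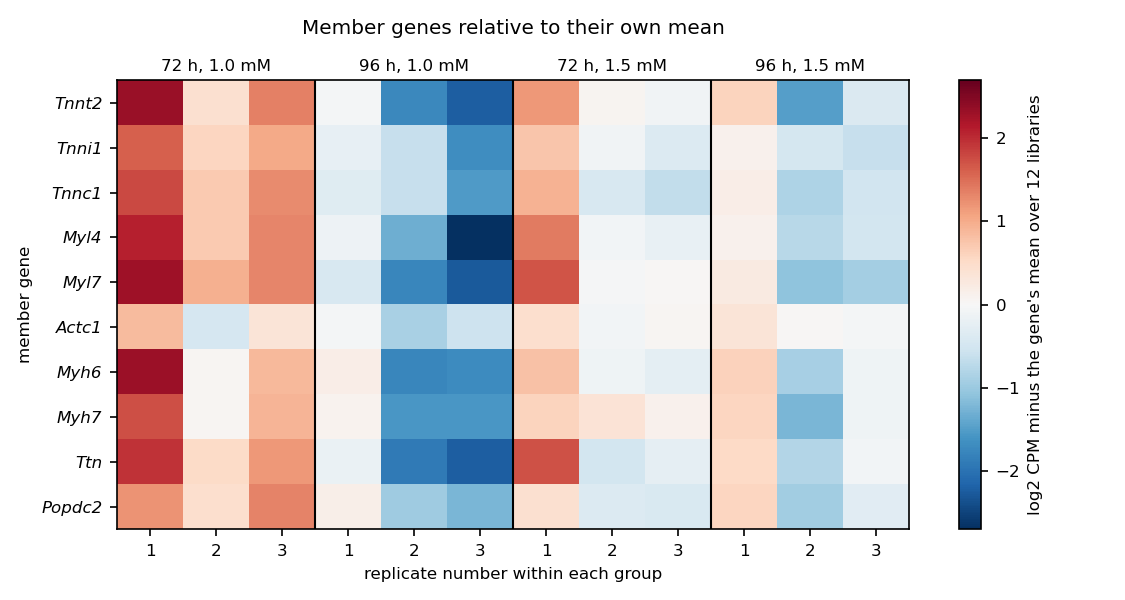
Log2 CPM of each gene (rows) in each library (columns, by group and replicate number) minus the gene's own mean over the 12 libraries, from blue (below the mean) to red (above it). All 10 genes are above their mean in replicates 1 and 3 of the 72 h, 1.0 mM group, and none is in replicates 2 and 3 of the 96 h, 1.0 mM group.

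The 10 genes varied strongly and together between replicates of one group. The within-group standard deviation of log2 CPM had a median of 0.819 over the members, from 0.423 for *Actc1* to 0.966 for *Tnnt2*. Over all genes tested the median was 0.161, and over the 3854 genes in the members' range of levels it was 0.166, with 0.493% of those genes at or above the members' median. Replicate 1 was the highest library of its group in all 4 groups for 9 of the 10 genes, beside 6.44% of all genes. *Popdc2* was the exception, through replicate 3 of the 72 h, 1.0 mM group. In the summed CPM of the members, replicates 1 to 3 held 498, 192 and 292 CPM at 72 h in 1.0 mM gels and 117, 54.9 and 36.9 CPM at 96 h in 1.0 mM gels. In 1.5 mM gels they held 307, 120 and 115 CPM after embedding at 72 h and 169, 74.8 and 100.2 CPM at 96 h. Replicate 1 embedded late in the denser gels was thus above replicates 2 and 3 embedded early in them. What set replicate 1 apart was not tested.

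*Myh6* and *Myh7* encode alternative motor proteins, and the adult mouse heart mainly uses the alpha form. Their balance was described as the *Myh6* share of both. From FPKM, the share was 59.0% ± 2.60 (SD, n = 3) at 72 h and 52.3% ± 8.43 at 96 h in 1.0 mM gels, and 50.1% ± 6.51 and 62.2% ± 6.54 in 1.5 mM gels. The 2 embedding times differed by -2.69 percentage points (72 h minus 96 h, two-sided exact permutation test within gels, p = 0.590), and the 2 gels by 0.488 points (1.5 minus 1.0 mM, exact permutation p = 0.910). With 400 assignments, the smallest p possible was 0.005, and the p adjusted over both tests was 0.910 for each. Both differences average over opposite directions. Early embedding had the higher mean share in the softer gels (59.0% against 52.3%). In the denser gels it had the lower one (50.1% against 62.2%), without overlap of the libraries. Likewise, the denser gels had the lower mean share after early embedding and the higher one after late embedding. Neither test can show a change that reverses in this way, and the reversal itself was not tested. From read counts, which are not corrected for length, the group means in the order first given were 30.3%, 26.2%, 24.9% and 29.4%. Their directions reversed in the same way, but the groups overlapped. The upper limits of the exact 95% binomial interval of this share reached at most 39.8%, in replicate 2 of the 96 h, 1.5 mM group, an interval that covers counting error only. The FPKM came from another counting program with a correction for reads that map to several places. Which of these paralogues was the more abundant therefore depended on the table used. The 2 units also did not move alike for *Myh6* between libraries. In replicates 1 and 2 of the 72 h, 1.5 mM group, *Myh6* had 7.60 and 4.05 CPM but 2.27 and 2.04 FPKM. In these libraries *Myh7* had 17.5 and 14.7 CPM and 1.93 and 1.76 FPKM. The FPKM shares carry this difference, and its cause was not tested.

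**Figure D4:**
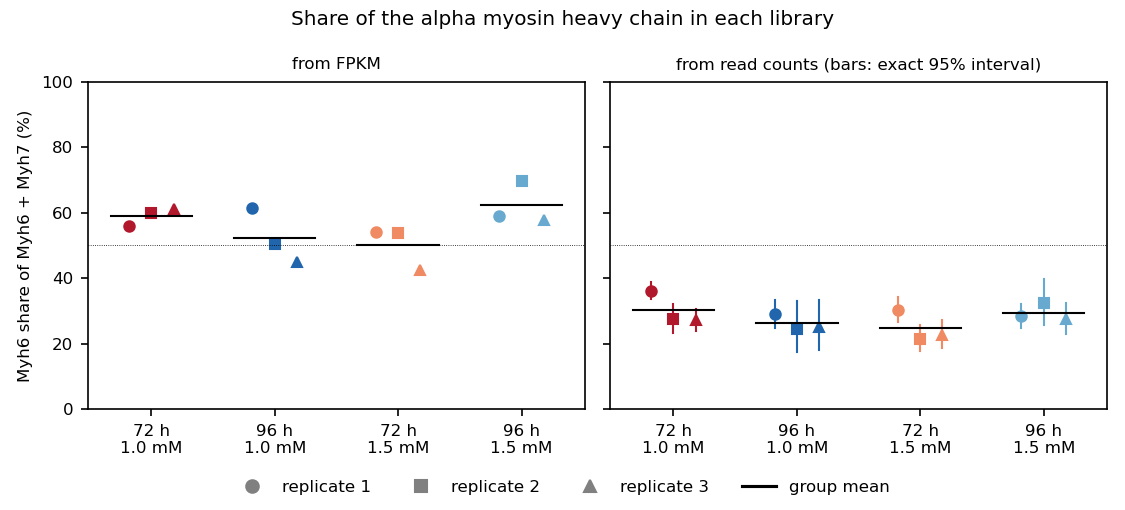
Share of *Myh6* in the sum of *Myh6* and *Myh7* (percent, axis from 0 to 100) in each library, from FPKM (left) and from read counts with the exact 95% binomial interval (right), with black bars at the group means. The FPKM shares run from 42.6% to 69.7% and the count shares from 21.6% to 36.2%. All groups overlap in the right panel. In the left panel, the 72 h, 1.5 mM group (42.6% to 54.1%) lies below the 96 h, 1.5 mM group (57.8% to 69.7%). It also lies below the 72 h, 1.0 mM group (56.1% to 61.0%).

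Other genes of the sarcomere were taken from lists of thin filament, thick filament and M-band, and Z-disc genes. These lists were drawn up with earlier results of these data known. Among all genes tested, 2.61% were called higher at 72 h in 1.0 mM gels. In 1.0 mM gels, 2 of 8 other thin filament genes were higher after embedding at 72 h, *Nebl* (nebulette; log2 fold change 1.99, adjusted p = 0.0149 in edgeR's test) and the pointed-end cap *Tmod1* (1.98, adjusted p = 0.0152). The list's median was 0.16, and the widely expressed tropomyosin *Tpm1* had the highest level per length, with a mean of 193 FPKM. Of the other thick filament and M-band genes, 5 of 9 were higher. They were the myosin-binding protein *Mybpc3* (3.16), *Smyd1* (1.85), the myosin chaperone *Unc45b* (1.50), the light chain *Myl3* (1.48) and the M-band protein *Myom1* (1.19). The median of this list was 1.19. Of 14 Z-disc and linker genes, 5 were higher, *Hspb7* (2.29), *Ldb3* (1.74), *Pdlim3* (1.56), *Nexn* (1.55) and *Synpo2l* (1.28). *Mybpc3* and *Hspb7*, with the largest fold changes of their lists, had as few as 4 and 6 reads in a library. *Actn2*, the alpha-actinin of the Z-disc, stayed at 1.21 to 2.77 CPM in all 12 libraries.

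In the membrane, calcium and conduction list, 5 of 19 genes were higher at 72 h in 1.0 mM gels. Among them were the calcium release channel *Ryr2* (2.01), its junctional partner *Jph2* (1.81), the potassium channel *Kcnj5* (1.75) and the pacemaker channel *Hcn4* (1.31). Of the cardiac regulators, 14 of 16 were higher, beside 2.61% of all genes tested, with a median log2 fold change of 2.13. The largest were *Tbx20* (2.82), *Tbx5* (2.75), *Gata4* (2.57), *Gata5* (2.57) and *Nkx2-5* (2.53). In their lowest libraries, *Tbx5* had 1 read and *Nkx2-5* 13 reads, which limits the precision of their fold changes. No gene of these 5 lists was called lower.

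In 1.5 mM gels, where 1.61% of all genes tested were called higher at 72 h, fewer of these genes passed. They were 1 of 9 thick filament genes, *Myh7b* (log2 fold change 1.02), 2 of 19 membrane genes, among them *Kcnj5* (1.68), and 5 of 16 regulators, *Myocd* (1.53), *Tbx20* (1.40), *Gata4* (1.36), *Nkx2-5* (1.304) and *Mef2c* (1.14). The other thin filament and Z-disc lists had no called gene, with 1 of 8 and 3 of 13 genes at an unadjusted p below 0.05 in edgeR's test, beside 5510 of all 15683 genes. *Kcnj5* had nearly the same fold change in both gels, 1.75 and 1.68, and *Nkx2-5* measured 8.21 to 12.6 CPM and 6.06 to 12.9 CPM at 72 h in 1.0 and 1.5 mM gels. The median log2 fold changes in 1.5 mM gels were 0.05, 0.29, 0.29, 0.24 and 0.90 for the thin filament, thick filament, Z-disc, membrane and regulator lists. Between gels, no gene of these 5 lists passed at either embedding time, and 0% of all genes tested did.

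**Figure D5:**
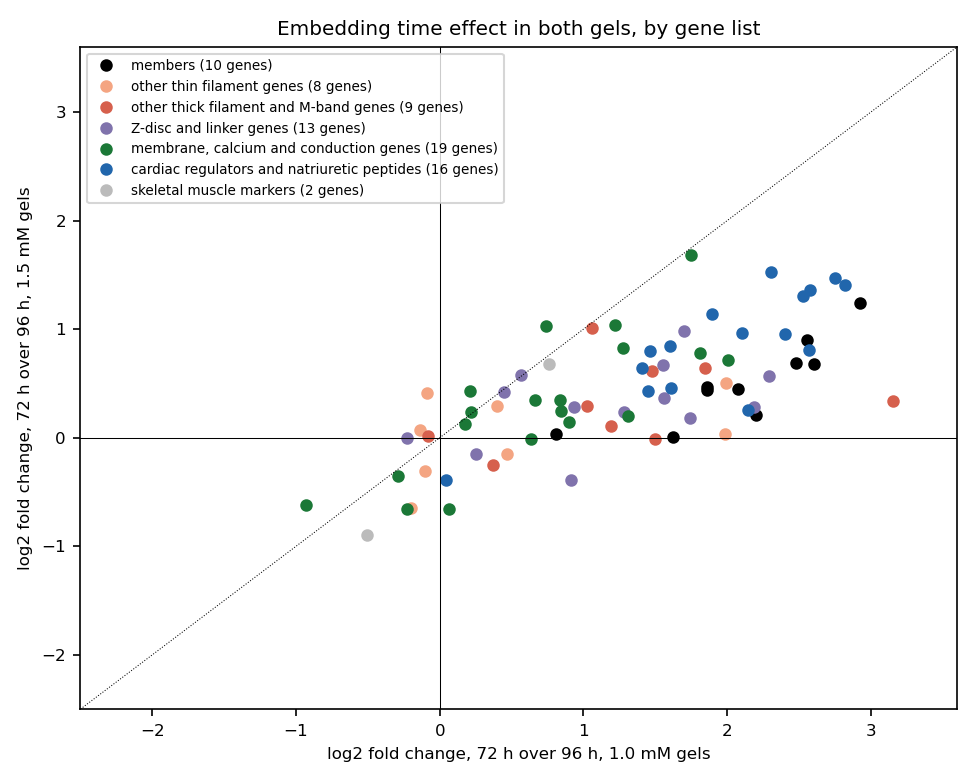
Log2 fold change of embedding at 72 h over 96 h in 1.0 mM gels (x axis) and in 1.5 mM gels (y axis) for genes of 7 lists tested in both gels, with the dotted line marking equal fold changes. All 10 members (black) lie to the right of 0 and below the dotted line, and the medians of the members are 2.14 and 0.46 on the 2 axes.

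Some listed heart muscle genes, picked out after their values were seen, were at or near 0. *Myoz2*, *Sln* and *Cav3* had no read in any library. The natriuretic peptides *Nppa* and *Nppb* had at most 1 read, *Pln*, the brake of the calcium pump, at most 4 reads, and *Myl2*, the ventricular regulatory light chain, at most 13 reads in a library. *Tnni3*, the adult cardiac troponin I, was not among them and averaged 2.47 FPKM over the 12 libraries, beside 17.8 FPKM for *Tnni1*.

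Markers of other cells that could hold the same transcripts were summed over their lists. The 14 skeletal muscle markers summed to 10.4 to 15.1 CPM at 72 h and 10.5 to 11.3 CPM at 96 h in 1.0 mM gels, and to 9.41 to 12.1 and 10.1 to 11.8 CPM in 1.5 mM gels. *Myog* had no read, *Myod1* at most 6 reads, and the gene of the list with the most reads was *Tnnt3* at 3.74 to 10.6 CPM. The 8 smooth muscle markers summed to 53.5 to 71.5 CPM and 51.0 to 63.2 CPM in 1.0 mM gels, and to 67.5 to 71.1 and 54.9 to 64.1 CPM in 1.5 mM gels, led by *Smtn* at 38.0 to 60.0 CPM. Of the 7 and 6 smooth muscle genes tested in the 2 gels, none was called. An unadjusted p below 0.05 in edgeR's test was found for 3 and 2, beside 3602 of 15763 and 5510 of 15683 genes in all. The median log2 fold changes of the smooth muscle genes were 0.62 and -0.31, with 5 of 7 and 2 of 6 above 0. Endothelial markers summed to 348 to 443 CPM at 72 h and 352 to 375 CPM at 96 h in 1.0 mM gels. In 1.5 mM gels the sums were 320 to 478 and 419 to 477 CPM. The median log2 fold change of the 8 endothelial genes was -0.31 in 1.0 mM gels, with 3 above 0. In 1.5 mM gels it was -0.48, with 2 above 0. *Kdr* had the most reads among them, and *Emcn* was lower after early embedding in the denser gels (log2 fold change -1.68, adjusted p = 0.00754 in edgeR's test). Blood markers, nearly all reads of *Tal1*, were higher after early embedding in both gels. They summed to 33.3 to 38.9 CPM at 72 h and 19.3 to 22.6 CPM at 96 h in 1.0 mM gels. In 1.5 mM gels the sums were 31.8 to 48.0 and 21.03 to 28.7 CPM. The groups of this sum did not overlap in either gel. *Tal1* had log2 fold changes of 0.83 (adjusted p = 0.00106 in edgeR's test) and 0.69 (adjusted p = 0.0182) in the 2 gels, under the fold threshold, *Gata1* was higher after early embedding in the denser gels (1.93), and *Hbb-y* had no read. Gut endoderm markers summed to 431 to 545 CPM and 416 to 468 CPM in 1.0 mM gels, and to 411 to 530 and 333 to 445 CPM in 1.5 mM gels. *Trh* had the most reads among them, and *Shh* was higher at 72 h in both gels (1.37 and 1.46), as was *Cer1* in 1.5 mM gels (1.70). The median log2 fold change of the 8 gut endoderm genes was 0.33 in 1.0 mM gels, with 5 above 0. In 1.5 mM gels it was 0.03, with 4 above 0. The part of these cells in the members' values was not tested.

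Genes outside the list were ranked by how closely their centred log2 CPM followed the mean of the members over the 12 libraries, among genes with at least 100 reads on average. The root mean square difference was lowest for *Nebl* (0.145), *Ryr2* (0.165), *Smyd1* (0.170), *Ccdc141* (0.214) and *Jph2* (0.227). *Capn6* (0.263), *Ldb3* (0.305), *Cdh6* (0.338), *Slc30a3* (0.348) and *Unc45b* (0.350) followed. With log2(FPKM + 1) in place of log2 CPM, 6 of these 10 were again among the nearest 10. The members themselves lay at 0.265 to 0.416, apart from *Actc1* at 0.651, which ranked 177 of 11344 genes.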

How the data were processed

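Polyadenylated RNA of 12 gastruloid samples was sequenced as stranded 75 bp paired-end libraries. The authors trimmed reads with cutadapt 4.4, aligned them to mm10 with STAR 2.7.10b and an Ensembl gene annotation, and deposited 2 tables used here: raw counts of reads per gene, and FPKM values from Cufflinks 2.2.1.3, which corrects for reads mapping to several places and masks mitochondrial genes. A deposited table of the authors' own DESeq2 comparisons (fold changes and p-values) was not used.

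Counts of non-mitochondrial genes (36 left out) were scaled by TMM and tested with edgeR 4.0.16 (quasi-likelihood F-test) in R 4.3.3, after a filter requiring at least 10 reads in enough libraries and 15 in all. Called genes had a Benjamini-Hochberg adjusted p below 0.05 over all genes tested and an absolute log2 fold change above 1. Fold changes are 72 h over 96 h, or 1.5 mM over 1.0 mM. The scripts were tested on simulated data. Alternatives were DESeq2 1.42.0, limma-voom (limma 3.58.1), RLE size factors, no filter, mitochondrial genes kept, a replicate block, a joint fit and leaving out each library. The members and lists were chosen with earlier results of these data known. Outside the members, the text names at most 5 called genes per list and gel with the largest changes, the highest gene of each cell type list, and the 10 genes nearest to the members. The values of 1 called gene of the membrane list are not reported here. *Actn2*, *Tpm1*, *Tnni3* and the genes at or near 0 were chosen after their values were seen. Totals of 23011791 to 27609422 reads per library limit precision by counting error mainly for genes of few reads.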

Additional observations from a re-analysis of the deposited data

How the results depend on the processing

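Of the 70 values of a member in a comparison, none that passed the test changed direction under any alternative. The number of members called higher after embedding at 72 h ranged from 5 to 10 in 1.0 mM gels and from 4 to 9 across gels when single libraries were left out, and was 0 in every such fit for the other comparisons. Without a filter on low counts, 1 member was called for embedding time in 1.5 mM gels, 4 for gel concentration at 72 h, 1 at 96 h and 9 for the interaction. In that fit, edgeR's prior degrees of freedom were infinite in 6 of 7 comparisons, and the members' median quasi-likelihood dispersion was 0.771 against 7.39 with the filter for embedding time in 1.0 mM gels. With the replicate number as a replicate block, these counts were 1, 2, 1 and 2, with 9 in 1.0 mM gels and 8 across gels. The interaction calls were *Myl7* (-1.83, adjusted p = 0.00308 in edgeR's test) and *Ttn* (-2.14, adjusted p = 0.0370). How many of all genes were called without the filter or with the block is not reported here. These counts of members therefore cannot be set beside a share over all genes. The labels do not say what a replicate number marks. Deviations of same-numbered samples correlated at 0.036 to 0.313 over 18 pairs, above 0.1 in 13 and in all pairs of replicate 1 (0.145 to 0.313), and 9 of 12 libraries correlated best with their own number, a hint from the data and not the design. Without replicate 1 of every group, chosen after the data were seen, 5 members were called for gel concentration at 72 h and 2 for the interaction. Among uncalled values, that setting reversed *Actc1* for embedding time in 1.5 mM gels (-0.0065) and *Myh6* (0.17) and *Myh7* (0.29) for gel concentration across embedding times, where DESeq2 (0.0068) and the block (0.066) also reversed *Myh7* and limma-voom reversed *Ttn* (-0.10). Leaving out single libraries gave log2 ranges across 0 for embedding time in 1.5 mM gels in *Tnnc1* (-0.23 to 0.79), *Actc1* (-0.14 to 0.17), *Myh6* (-0.20 to 0.67), *Ttn* (-0.36 to 1.07) and *Popdc2* (-0.32 to 0.52). For gel concentration the ranges were -0.47 to 0.16 for *Actc1* at 72 h and -0.019 to 1.04 for *Popdc2* at 96 h, and across embedding times *Tnnt2* (-0.57 to 0.20), *Myl4* (-0.44 to 0.13), *Myl7* (-0.40 to 0.24), *Myh6* (-0.57 to 0.27), *Myh7* (-0.31 to 0.30) and *Ttn* (-0.089 to 0.49). The difference of the *Myh6* share between gels was -1.15 points from counts and -2.22 to 3.20 points with single libraries left out. What caused these differences between settings was not tested. Counts as low as 31 reads for *Myh6* limit its precision.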
